A study of Mus musculus with 7 samples.

Results

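Tbx6, Msgn1, Ripply2, Meox1, Meox2, Tcf15, Foxc1, Foxc2, Cited2 and Pdgfra are genes of the paraxial mesoderm, the tissue that forms the presomitic mesoderm and then the somites. They were taken as a named list of 10 genes, of 21887 protein-coding genes in the gene table, and all 10 were found in it by symbol. For each gene, the listed peaks of transcription factor binding were collected inside the gene or up to 10 kb from it, and again up to 50 kb from it. Every peak was placed by its score rank within its own list.

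The binding data came from chromatin immunoprecipitation followed by sequencing (ChIP-seq) in parental mouse embryonic stem cells (ESCs). A peak list was used for Oct1 in undifferentiated ESCs (antibody NBP2-21584), Oct4 in the same kind of cells (antibody sc-5279) and Oct1 after 3 and 6 days of differentiation towards mesoderm (antibody NBP2-21584). Differentiation began with 2 days of Bmp4 in N2B27 medium. For the next 4 days cells were given Rspo3 together with LDN-193189, which blocks BMP receptors. All these cells were of the parental genotype, whose strain is not given in the sources used here. The 3 input libraries, the conditional knockout and the retinoic acid arm were not analysed here. Each group was 1 library, so no difference between groups could be set against a spread between replicates and no test was made. The lists held 17709 peaks (Oct1 in ESCs), 22817 (Oct4 in ESCs), 4867 (Oct1 at day 3) and 7758 (Oct1 at day 6), and they hold no read counts, so the number of reads behind each peak is unknown.

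Paraxial mesoderm cells leave the primitive streak and tail bud under Wnt and FGF signalling, pass through a presomitic state marked by Tbx6 and Msgn1, and segment into somites marked by Meox1, Meox2, Tcf15 and the Foxc genes. BMP signalling favours lateral over paraxial mesoderm, and differentiation protocols for this tissue therefore combine activation of Wnt signalling, here by the R-spondin Rspo3, with a BMP inhibitor. Oct1, the product of Pou2f1, and Oct4, the product of Pou5f1, belong to the POU family of transcription factors and recognise the octamer ATGCAAAT and related sequences. The series title links Oct1 with Smad factors in the choice of the mesodermal lineage, so the libraries ask, for these genes, whether Oct1 is found near them before or during differentiation.

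Oct1 peaks were listed within 10 kb of 5 of the 10 genes at day 6 and of 1 in ESCs. The day 6 genes were Tbx6, Meox1, Foxc2, Ripply2 and Cited2 (50% of the list, exact Clopper-Pearson 95% interval 18.7 to 81.3, which covers the counting of 10 genes alone). Over all protein-coding genes, 41.5% had a day 6 peak in this window, so the share of the 10 genes lay near that of any gene. In the ESC Oct1 list Pdgfra was the 1 gene with a peak (10%, interval 0.253 to 44.5), against 35.2% of all protein-coding genes. Oct4 peaks in ESCs were listed at Meox1, Foxc1 and Pdgfra, which is 3 of 10 genes (interval 6.67 to 65.2) against 40.2% of all. Day 3 Oct1 peaks were likewise listed at 3 genes, Tbx6, Tcf15 and Pdgfra, against 24.6% of all. All 4 intervals include the share of all protein-coding genes.

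The 5 genes with an Oct1 peak within 10 kb at day 6 had none in that window in ESCs. This combination (5 of 10 genes, interval 18.7 to 81.3) was found at 22.0% of all protein-coding genes, a share inside that interval. The combination was formed from the day 6 and ESC counts above. It holds the same 5 genes as the day 6 count, so it adds no separate evidence. It held for 4805 of the 9087 protein-coding genes with a day 6 peak in this window. Over the 4 lists, Foxc2, Ripply2 and Cited2 had the same pattern (day 6 Oct1 alone, 4 of 4 lists alike), which 2024 protein-coding genes (9.25%) share. Tbx6 had Oct1 at day 3 and day 6 (6.99% of genes have this pattern), and Meox1 had Oct4 in ESCs and Oct1 at day 6 (3.37%). Tcf15 had Oct1 at day 3 alone (0.740%), and Foxc1 had Oct4 in ESCs alone (5.25%). Pdgfra had both factors in ESCs and Oct1 at day 3, and no peak at day 6 (2.52%). Msgn1 and Meox2 had no peak in any list, like 36.5% of genes.

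**Figure D1:**
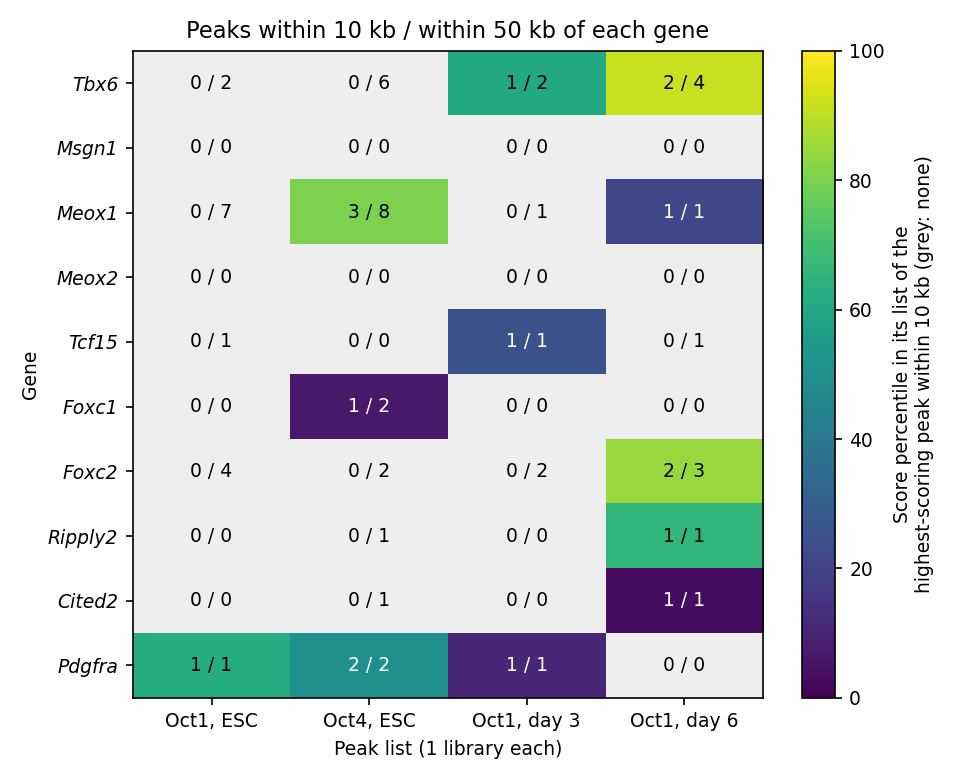
Each row is 1 of the 10 genes and each column 1 peak list (1 library each). Cells give the number of peaks within 10 kb and within 50 kb, and the colour gives the score percentile within its list of the highest-scoring peak within 10 kb, with grey where there was none; Tbx6 at day 6 reaches 91.5 and Cited2 at day 6 reaches 3.15.

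Most of the day 6 peaks counted for these genes lay at the start of a neighbouring gene. Of the 7 day 6 peaks within 10 kb, 5 had their midpoint within 1 kb of an annotated gene end, and 4 of those 5 ends belonged to a neighbour (Ypel3, Ppp4c, Mthfsd and Cyb5r4). The fifth was at Cited2 itself. Gene ends are where day 6 peaks lie in general, since 76.4% of the whole day 6 list had a midpoint within 1 kb of one. When a peak was counted only for the protein-coding gene nearest to its midpoint, Meox1 and Cited2 kept a day 6 peak (2 of 10 genes, against 31.6% of all protein-coding genes). The same rule left 1 gene in the ESC Oct1 list (28.0% of all genes), 3 in the Oct4 list (32.2%) and 2 at day 3 (17.7%), where Tbx6 lost its peak. Seen by peaks, the member was the nearest gene for 2 of 7 day 6 peaks within 10 kb. This held for 64.7% of all pairs of a gene and a day 6 peak within 10 kb. The same count was 1 of 1 for Oct1 in ESCs (79.6% of pairs), 6 of 6 for Oct4 (78.6%) and 2 of 3 at day 3 (66.8%). These peaks are few, and the differences were not tested.

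**Figure D2:**
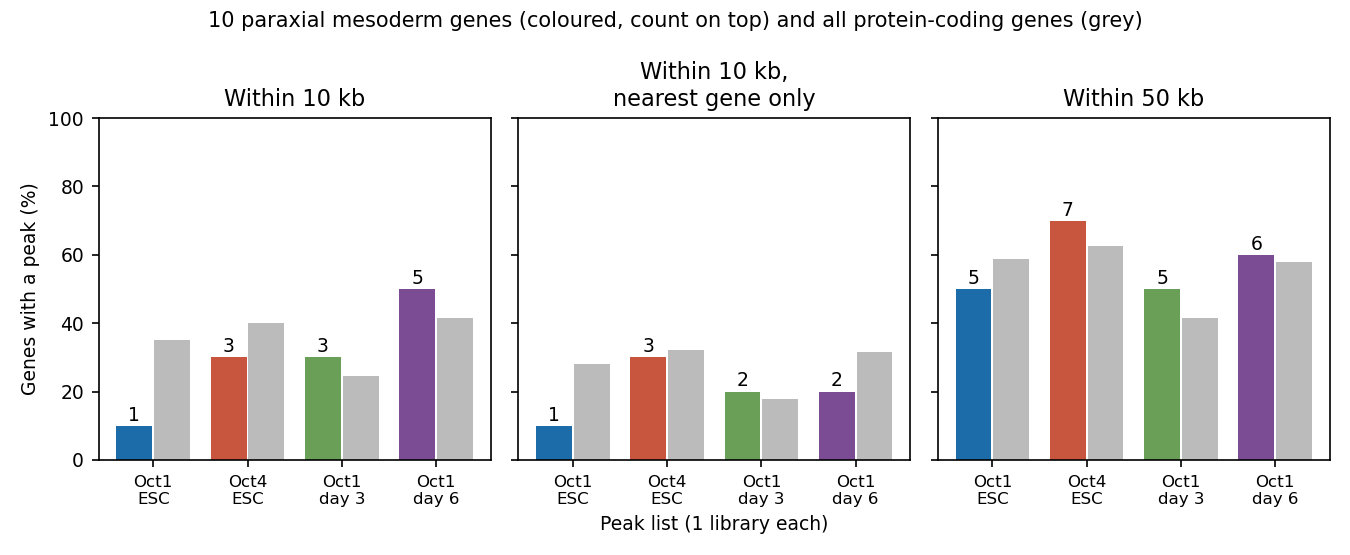
Bars give the percent of genes with a peak in each list (1 library each) for the 10 paraxial mesoderm genes (coloured, with the count on top) and for all 21887 protein-coding genes (grey), in 3 panels for the window of 10 kb, the same window with a peak given only to its nearest gene, and the window of 50 kb. At day 6 the count of the 10 genes is 5 within 10 kb and 2 under the nearest-gene rule.

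Tbx6 encodes a T-box factor that defines the presomitic mesoderm and keeps its cells from a neural fate. The gene (ID 21389, chromosome 7, 126781483 to 126785548, plus strand, GRCm38) lies in a dense stretch with 7 other protein-coding genes within 50 kb. No peak of either ESC list lay within 10 kb of it. At day 3 a peak with score 248 (rank 1908 of 4867, percentile 60.7, where 100 is the highest score) lay at 126776661 to 126777250, with its midpoint 4.5 kb upstream of the Tbx6 start. At day 6 a peak at the same place (126776611 to 126777310) had score 1506 and rank 659 of 7758 (percentile 91.5, or 90.3 among day 6 peaks at gene ends), the highest-ranked day 6 peak near any of the 10 genes. Scores of different lists have no shared scale, and the lists differ in length and in the share of peaks at gene ends (58.9% at day 3 and 76.4% at day 6), so neither the scores nor the ranks show a change between the days. The site overlapped no ESC peak of either factor.

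That site covers the start of Ypel3, a gene whose other end is 1.0 kb from Tbx6, and the peak midpoints were 7 bp and 2 bp from the Ypel3 end that is farther from Tbx6. Promoter windows of RefSeq (250 bases before to 50 after a start, GRCm38.p6) were available for 7 of the 10 genes and not for Meox1, Tcf15 and Foxc2. The window of Ypel3 is shown because both peaks cover it, and that of Tbx6 because no peak of the 4 lists did. Capitals mark the octamer or an octamer with a free base, and the Smad-type motif CAGAC, on either strand.
Ypel3, chr7:126776713-126777012, plus strand: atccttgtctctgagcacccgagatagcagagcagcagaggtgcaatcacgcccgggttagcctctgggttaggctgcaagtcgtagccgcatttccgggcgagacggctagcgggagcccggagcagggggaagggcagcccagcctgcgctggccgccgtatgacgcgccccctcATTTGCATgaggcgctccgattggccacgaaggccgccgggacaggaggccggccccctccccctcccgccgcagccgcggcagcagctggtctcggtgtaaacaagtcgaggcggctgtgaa
Tbx6, chr7:126781233-126781532, plus strand: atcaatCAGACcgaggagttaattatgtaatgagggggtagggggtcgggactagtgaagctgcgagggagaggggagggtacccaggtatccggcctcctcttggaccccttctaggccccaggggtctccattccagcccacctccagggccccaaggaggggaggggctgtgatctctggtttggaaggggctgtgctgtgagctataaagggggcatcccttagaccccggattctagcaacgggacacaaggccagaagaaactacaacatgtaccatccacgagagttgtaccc

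The Ypel3 window holds an exact octamer, written ATTTGCAT on its plus strand, at bases 178 to 185, beginning 73 bases before the start. The motif ATGCAAAT was searched on both strands (so also as ATTTGCAT), and 1.74% of 32851 promoter windows of this length hold it. The variants with a free base, ATGCNAAT and ATGNAAAT, are met by the same site in Ypel3 and occur in 3.15% and 5.67% of windows, exact octamers included. None of the 7 windows of the listed genes holds ATGCAAAT. The Tbx6 window holds CAGAC once, at bases 7 to 11, as 49.6% of windows hold it at least once. Neither the Smad palindrome GTCTAGAC (0.213% of windows) nor the T-box core AGGTGTGA (1.28%) was found in any window of the listed genes that could be searched. A match of letters describes the window and does not show a bound site.

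A second day 6 peak within 10 kb of Tbx6 lay on its other side, at 126791971 to 126792690 (score 729, rank 2687, percentile 65.3, or 60.3 among day 6 peaks at gene ends). It covered promoter windows of Ppp4c, which encodes a catalytic subunit of a protein phosphatase, and its midpoint was 226 bp from a gene end. Between 10 and 50 kb, day 6 peaks lay at an end of Mapk3 (score 1204, rank 1139) and over promoter windows of Aldoa (score 736, rank 2649), and the Aldoa site also had the other day 3 peak near Tbx6 (score 142, rank 3036). In ESCs the nearest Oct1 peak was 40.4 kb away and the highest of 2 within 50 kb had score 284 (rank 2150), while Oct4 had 6 peaks in this range, the highest with score 229 (rank 3546). For these 8 ESC peaks, the nearest protein-coding gene was Mapk3, Tlcd3b or 4930451I11Rik and never Tbx6.

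Msgn1 encodes mesogenin, a bHLH factor that drives the maturation of presomitic mesoderm. No peak was listed within 50 kb of the gene (ID 56184, chromosome 12, 11208382 to 11208948, minus strand) in any of the 4 lists. The nearest peaks were 108.2 kb away for Oct1 and for Oct4 in ESCs, 56.8 kb at day 3 and 56.7 kb at day 6. Of all protein-coding genes, 22.4% had no peak within 50 kb in any list. The Msgn1 window is shown because it holds an octamer-like match although no peak was near, namely ATGCTAAT (the form ATGCNAAT) at bases 39 to 46, beginning 212 bases before the start.
Msgn1, chr12:11208899-11209198, minus strand, written along the gene: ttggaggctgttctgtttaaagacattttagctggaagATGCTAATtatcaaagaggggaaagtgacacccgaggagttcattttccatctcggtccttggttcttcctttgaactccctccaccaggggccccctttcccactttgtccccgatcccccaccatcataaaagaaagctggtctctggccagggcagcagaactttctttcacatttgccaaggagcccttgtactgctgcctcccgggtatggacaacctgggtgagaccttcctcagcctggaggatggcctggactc

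Ripply2 encodes a co-repressor that ends Tbx6 action where a somite boundary forms. The gene (ID 382089, chromosome 9, 87015537 to 87020441, plus strand) had 1 day 6 peak, at 87021761 to 87022360 (score 737, rank 2636, percentile 66.0, or 61.1 among day 6 peaks at gene ends), 1.3 kb past its end. This peak covered the start of Cyb5r4, a cytochrome b5 reductase gene whose nearer end is 1.6 kb from Ripply2, and its midpoint was 52 bp from a gene end. The nearest other Oct1 peaks were 309.7 kb away in ESCs and 443.2 kb away at day 3, and an Oct4 peak with score 118 (rank 14656) lay 48.2 kb away, inside Cyb5r4. Both windows are shown for comparison, with the same capitals.
Ripply2, chr9:87015287-87015586, plus strand: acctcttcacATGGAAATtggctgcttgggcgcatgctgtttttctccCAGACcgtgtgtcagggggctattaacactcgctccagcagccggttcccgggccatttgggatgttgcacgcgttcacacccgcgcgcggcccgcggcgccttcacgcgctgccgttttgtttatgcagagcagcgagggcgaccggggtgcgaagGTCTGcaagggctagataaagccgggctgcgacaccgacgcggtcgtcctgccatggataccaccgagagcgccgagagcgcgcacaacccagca
Cyb5r4, chr9:87021779-87022078, plus strand: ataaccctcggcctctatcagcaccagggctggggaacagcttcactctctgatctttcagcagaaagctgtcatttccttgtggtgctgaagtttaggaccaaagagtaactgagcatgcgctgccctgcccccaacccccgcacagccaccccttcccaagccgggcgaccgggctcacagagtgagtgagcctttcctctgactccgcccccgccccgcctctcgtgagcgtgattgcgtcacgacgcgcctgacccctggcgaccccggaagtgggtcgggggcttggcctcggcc

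The Ripply2 window, which no peak covered, holds ATGGAAAT (the form ATGNAAAT) at bases 11 to 18 and CAGAC on either strand, at bases 49 to 53 and, as GTCTG, at bases 206 to 210. The Cyb5r4 window, under the day 6 peak, holds none of the 6 motifs searched.

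**Figure D3:**
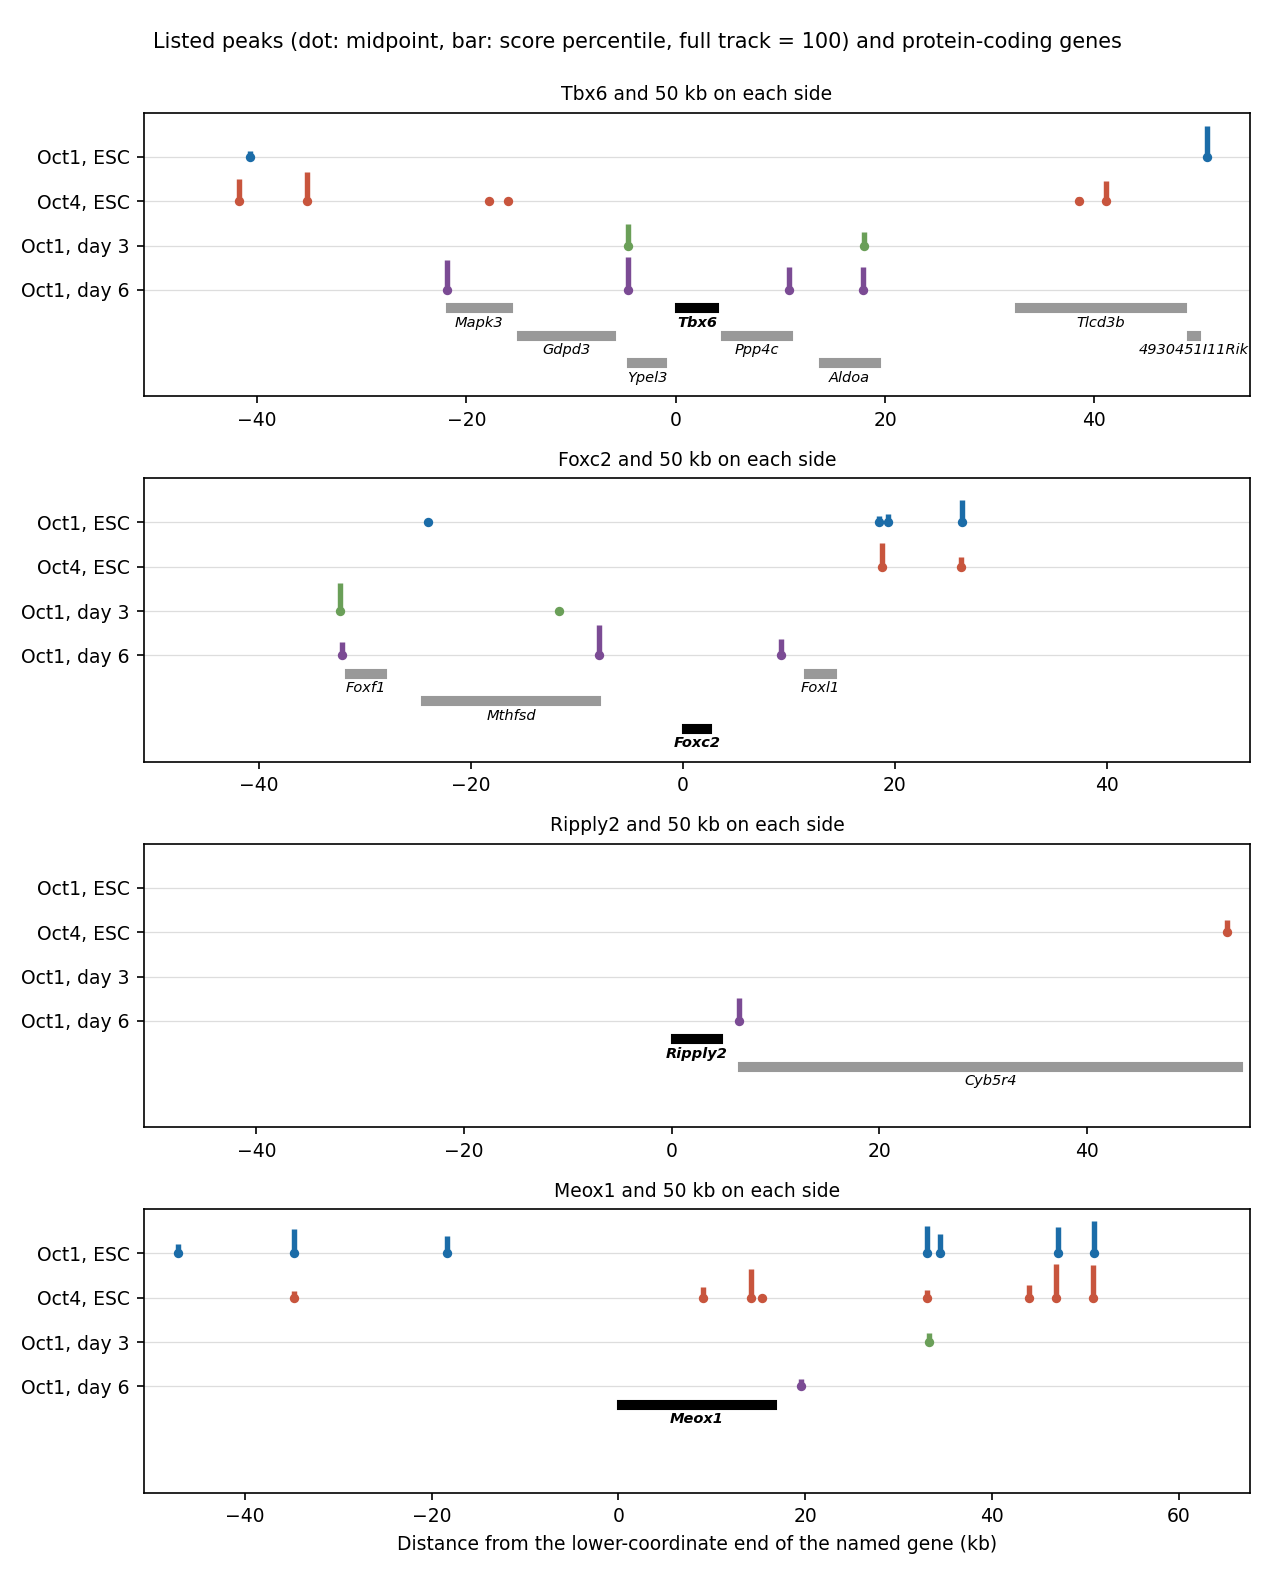
Panels show Tbx6, Foxc2, Ripply2 and Meox1 with 50 kb on each side, with distance in kb from the lower-coordinate end of the gene on the horizontal axis and 1 track per peak list (1 library each). Dots mark peak midpoints, bars give the score percentile in the list, and boxes are protein-coding genes (the named gene in black); the day 6 peaks nearest to Tbx6 and Ripply2 sit at ends of Ypel3, Ppp4c and Cyb5r4.

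Meox1 encodes a homeodomain factor of the early somite, and its surroundings carried the most peaks of the 10 genes. Within 50 kb of the gene (ID 17285, chromosome 11, 101877510 to 101894354) the ESC lists held 7 peaks of Oct1 and 8 of Oct4, and the later Oct1 lists held 1 each. At least 7 ESC Oct1 peaks in this window were found for 5.67% of all protein-coding genes, and at least 8 Oct4 peaks for 8.37%, although these limits were set by the values of Meox1 itself. No other protein-coding gene lies within 50 kb. The sites of both factors coincided at 4 of the 7 Oct1 peaks. The highest-ranked of these Oct1 peaks was at 101928081 to 101928780 for Oct1 (score 369, rank 1389 of 17709, percentile 92.2), 33.7 kb above the gene and about as far from Sost, where Oct4 ranked 1690 (score 293). The midpoint of this Oct1 peak was 763 bp from an end of a gene that is not protein-coding. Among ESC Oct1 peaks at gene ends its percentile was 83.8. The highest-ranked Oct4 peak lay at 101923991 to 101924860, 29.6 kb above the gene (score 327, rank 1225 of 22817, percentile 94.6), and overlapped an Oct1 peak with score 169 (rank 4623).

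Inside the Meox1 gene, Oct4 had 3 peaks in ESCs with scores 111, 216 and 51 and ranks 15836, 4491 and 22469, and Oct1 had none. Whether they are exonic or intronic is not known from the gene table, which lists no exons. At 15.9 kb above the gene an Oct1 peak (score 200, rank 3769), an Oct4 peak (score 95, rank 17899) and a day 3 Oct1 peak (score 104, rank 3629 of 4867) coincided, and this was the 1 site near the 10 genes with a peak in 3 lists (none had a peak in 4). The day 6 peak lay elsewhere, at 101896641 to 101897490, 2.3 kb above the gene, with score 213 and rank 6114 of 7758 (percentile 21.2). Among day 6 peaks away from gene ends alone, its percentile was 45.9.

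Meox2, the paralogue of Meox1 in somites and limb muscle, stood at the other extreme. Its gene (ID 17286, chromosome 12, 37108540 to 37179534, plus strand) had no peak within 50 kb in any list and no other protein-coding gene in that range. The nearest peaks lay 700.6 kb (Oct1 in ESCs), 643.9 kb (Oct4), 700.9 kb (day 3) and 735.6 kb (day 6) away, farther than for 92.3%, 93.4%, 85.4% and 91.0% of protein-coding genes. Its promoter window holds none of the motifs searched.

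Tcf15 encodes paraxis, a bHLH factor needed for the epithelial form of somites. It had 1 peak within 10 kb (gene ID 21407, chromosome 2, 152143056 to 152149097), a day 3 Oct1 peak at 152154791 to 152155320, 5.7 kb above the gene, with score 102 and rank 3656 of 4867 (percentile 24.7, or 43.1 among day 3 peaks away from gene ends). Tcf15 was the protein-coding gene nearest to it. In ESCs an Oct1 peak with score 104 (rank 8934) lay 28.0 kb above the gene, at another position. The day 6 peak within 50 kb (score 181, rank 6370) overlapped Scrt2, 47.5 kb away, and no Oct4 peak lay within 50 kb.

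Foxc1 and Foxc2 encode related forkhead factors that act together in somite formation and set paraxial against intermediate mesoderm. Their surroundings differed. Foxc1 (ID 17300, chromosome 13, 31806646 to 31810635, plus strand) had no Oct1 peak within 50 kb at any time, and the nearest lay 67.8 kb away in ESCs, 527.8 kb at day 3 and 527.7 kb at day 6. It had Oct4 peaks 7.8 kb upstream (score 68, rank 21207 of 22817) and 45.2 kb upstream (score 93, rank 18527), both among the lower scores of that list.

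Around Foxc2 (ID 14234, chromosome 8, 121116171 to 121118895), the 50 kb window held 4 Oct1 peaks from ESCs, 2 from day 3 and 3 from day 6, and 2 Oct4 peaks. Both day 6 peaks within 10 kb were nearer to another gene. The first, at 121107931 to 121108610 (score 1178, rank 1191, percentile 84.6, or 82.4 among day 6 peaks at gene ends), covered the promoter window of Mthfsd, whose nearer end is 7.8 kb from Foxc2. The second, at 121124891 to 121125960 (score 453, rank 4257, percentile 45.1), lay 6.0 kb above Foxc2, with its midpoint 2.3 kb from Foxl1, a forkhead gene of the same cluster. Among day 6 peaks away from gene ends its percentile was 67.6. The ESC peaks lay farther out. From 15.2 kb above the gene, 3 Oct1 peaks coincided with the 2 Oct4 peaks and were nearest to Foxl1. The highest of these Oct1 peaks (score 134, rank 6396, percentile 63.6) overlapped the lower Oct4 peak (score 106, rank 16431, percentile 27.7). The higher Oct4 peak (score 169, rank 7562, percentile 65.8) lay at another site and overlapped Oct1 peaks with scores 64 and 71 (ranks 14533 and 13250). The fourth Oct1 peak (score 48, rank 16598) lay inside Mthfsd. A peak at an end of Foxf1, a forkhead gene of lateral mesoderm in the same cluster, was listed at day 3 (score 403, rank 996) and at day 6 (score 373, rank 4857). The remaining day 3 peak, inside Mthfsd and 11.5 kb from Foxc2, had score 51 (rank 4675).

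Cited2 encodes a co-activator that binds CBP and p300. It was the 1 gene of the 10 with a peak over its own start, at 17722901 to 17723400 at day 6 (gene ID 17684, chromosome 10, 17723228 to 17725674, plus strand). This peak was 500 bp wide, the narrowest width in the list, with score 71 and rank 7509 of 7758 (percentile 3.15, or 1.12 among day 6 peaks at gene ends). The nearest Oct1 peaks lay 484.9 kb away in ESCs and 1688.1 kb away at day 3, the latter farther than for 94.7% of protein-coding genes. An Oct4 peak with score 169 (rank 7562) lay 37.6 kb downstream. A day 6 peak covered the promoter window of 22.6% of the 27025 genes that have one, against 1 of the 7 listed genes with a window. This background is larger than the 21887 protein-coding genes used elsewhere, so it also holds genes of other kinds. None of these 7 windows had a peak of Oct1 in ESCs, of Oct4 or of Oct1 at day 3, where 5.21%, 4.03% and 10.4% of these 27025 genes had one, so a count of 0 of 7 does not set them apart. The Cited2 window is shown because the peak covers it, and no motif searched was found in it.
Cited2, chr10:17722978-17723277, plus strand: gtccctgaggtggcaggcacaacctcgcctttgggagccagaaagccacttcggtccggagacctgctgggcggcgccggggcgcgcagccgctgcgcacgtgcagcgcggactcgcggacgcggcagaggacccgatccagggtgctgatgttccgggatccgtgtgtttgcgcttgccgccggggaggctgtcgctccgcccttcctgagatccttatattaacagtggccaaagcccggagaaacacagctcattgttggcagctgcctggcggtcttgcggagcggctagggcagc

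Pdgfra encodes the alpha receptor for platelet-derived growth factor, a surface marker of paraxial mesoderm. It had peaks in both ESC lists and at day 3, and none at day 6. In ESCs an Oct1 peak at 75148331 to 75149110 (score 133, rank 6503, percentile 62.0) and an Oct4 peak at 75148451 to 75149080 (score 144, rank 11330, percentile 50.2) coincided 2.2 kb upstream of the gene (ID 18595, chromosome 5, 75151322 to 75198206, plus strand). Another Oct4 peak (score 136, rank 11992) lay inside the gene, with its midpoint 1.9 kb past the start used for its promoter window. At day 3 an Oct1 peak with score 67 (rank 4327 of 4867, percentile 10.6, or 19.6 among peaks away from gene ends) lay inside the gene, with its midpoint 18.4 kb past that start. At day 6 the nearest peak was 615.5 kb away, farther than for 89.3% of protein-coding genes. No other protein-coding gene lies within 50 kb of Pdgfra, and it was the nearest gene of all 4 peaks.

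Within 50 kb, an ESC Oct1 peak was listed for 5 of the 10 genes (58.7% of all protein-coding genes) and an Oct4 peak for 7 (62.5%). Later Oct1 peaks were listed for 5 at day 3 (41.5%) and 6 at day 6 (57.9%). Together the 4 lists held 55 peaks in these windows, of which 17 lay within 10 kb. Of the 55, 33 overlapped no peak of another list (60%), against 43.7% of all 53151 peaks, and by list these were 7 of 15 (36.0% of the whole list) for Oct1 in ESCs, 15 of 22 (52.4%) for Oct4, 3 of 7 (16.8%) at day 3 and 8 of 11 (52.5%) at day 6. Several of these peaks share a locus (17 lie near Meox1), so they are not independent, and the difference was not tested. In the ESC lists, 8 of 15 Oct1 peaks overlapped an Oct4 peak (53.3%, against 59.1% of the whole list), at Meox1, Foxc2 and Pdgfra. Of 7 day 3 peaks, 3 overlapped a day 6 peak (42.9%, against 58.5%), at Tbx6 and Foxc2, and 1 overlapped an ESC Oct1 peak (14.3%, against 32.3%), at Meox1. None of the 11 day 6 peaks overlapped an ESC Oct1 peak, where 15.2% of the whole list did, or an Oct4 peak, where 12.9% did. By a rule of 3 counts over the number of peaks, a count of 0 of 11 allows a share of up to 27.3% (3 of 11). The rule takes peaks as independent, whereas 4 of the 11 lie near Tbx6 and 3 near Foxc2, so the bound may be wider. The count of 0 therefore does not set these peaks apart from the list.

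The distance from each gene to its nearest peak had a median over the 10 genes of 54.1 kb in the ESC Oct1 list, against 29.2 kb over all protein-coding genes. The medians were 26.7 against 21.4 kb for Oct4, 36.5 against 83.0 kb at day 3 and 26.8 against 26.1 kb at day 6. In each list the 10 genes ranged from at most 2.2 kb to at least 643.9 kb. The lowest distance was 2.2 kb in the ESC Oct1 list (Pdgfra) and 0 in the other 3 lists. This range of single genes does not measure how far a median may vary, and the differences between medians were not tested.

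**Figure D4:**
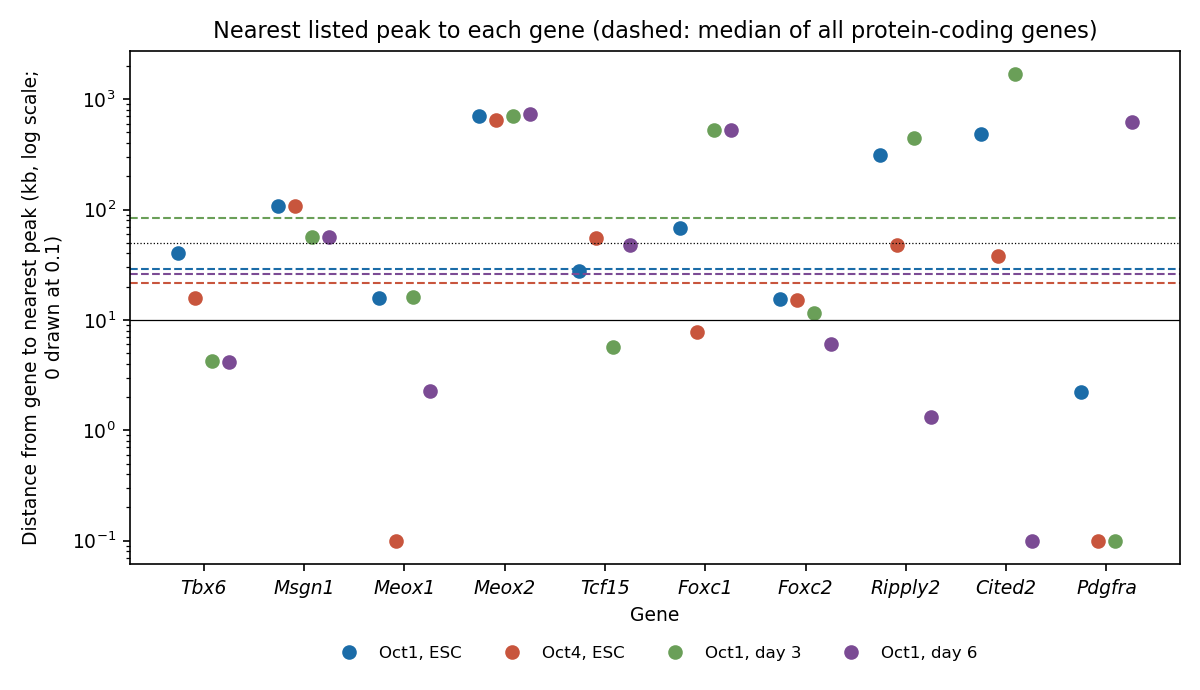
Points give the distance in kb (log axis, 0 drawn at 0.1) from each of the 10 genes to its nearest peak in each list (1 library each), dashed lines the median of all 21887 protein-coding genes, and horizontal lines the 10 kb (solid) and 50 kb (dotted) windows. Meox2 lies at 643.9 kb or more in all 4 lists, and Cited2, Meox1 and Pdgfra reach 0 in at least 1 list.

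Other genes of paraxial mesoderm, genes of other mesoderm and relatives of the listed genes were examined in the same way. Their lists were fixed by hand with earlier results of these data known. Some genes stand in several lists, which together hold 72 genes. The counts are to be read against the shares of all protein-coding genes within 10 kb (35.2% for Oct1 in ESCs, 40.2% for Oct4, 24.6% at day 3 and 41.5% at day 6). Of 26 genes of the presomitic mesoderm and segmentation clock, 13 had an ESC Oct1 peak within 10 kb and 13 an Oct4 peak (50% each), and 9 had an Oct1 peak at day 3 and 9 at day 6 (34.6% each). The highest-ranked peaks in the ESC Oct1 list lay at Fgfr1 (rank 1311), Pcdh8 (rank 1389) and Wnt3a (rank 1560), and in the Oct4 list at Dll1 (rank 47), Fgfr1 (rank 256) and Wnt3a (rank 263). At day 3 they lay at Pcdh8 (rank 532), Dll1 (rank 648) and Cdx2 (rank 812), and at day 6 at Axin2 and Dll3 (rank 2208 each) and Dll1 (rank 2514). For comparison, the day 6 peaks over the starts of Ypel3 (near Tbx6) and Mthfsd (near Foxc2) had ranks 659 and 1191.

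Of 24 genes of the somite compartments, 8 had an Oct1 peak in ESCs (33.3%), 6 at day 3 (25%) and 11 at day 6 (45.8%), and 9 an Oct4 peak (37.5%). Zic1 led the Oct1 lists with rank 149 in ESCs, 36 at day 3 and 20 at day 6, followed by Six4 and Eya1 in ESCs (ranks 943 and 3075), by Pax7 and Six4 at day 3 (895 and 1285) and by Six4 and Ptch1 at day 6 (3573 and 3959). For Oct4 the first were Six4 (rank 827), Ptch1 (rank 2912) and Lbx1 (rank 9991).

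Of 17 genes of intermediate and lateral mesoderm, 6 had Oct1 in ESCs (35.3%), 5 at day 3 (29.4%) and 6 at day 6 (35.3%), and 4 had an Oct4 peak (23.5%). Their leading peaks were at Hand1 (rank 1576) and at Gata4 and Pax2 (rank 3200 each) in the ESC Oct1 list, and at Hand1 (rank 1568), Pax2 (rank 3307) and Tbx5 (rank 7174) in the Oct4 list. At day 3 Foxf1 (rank 996), Lhx1 (rank 1117) and Isl1 (rank 2284) led, and at day 6 Lhx1 (rank 289), Isl1 (rank 3900) and Foxf1 (rank 4857). The Foxf1 peaks are the same ones given above within 50 kb of Foxc2. Of 10 paralogues and relatives of the listed genes, Mesp2 (rank 1840) and Pdgfrb (rank 3167) had an ESC Oct1 peak and also an Oct4 peak (ranks 20419 and 628), none had a day 3 peak, and Tbx1 had a day 6 peak (rank 7126). With 10 to 26 genes a list, 1 gene moves a share by several percentage points, and no test of a list was made.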

How the data were processed

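ChIP-seq peak lists of 4 libraries were analysed, 1 per group, with groups taken from the source names in the labels. Crosslinking was with 1% formaldehyde and sequencing gave read pairs of 50 bp per read on a NovaSeq, per the labels' protocols, which state 100M pairs. Per the submitters' processing notes, Novoalign 3.8.2 and the build mm10 were used. The peak caller, its threshold and the control are not given in the sources used here. Each deposited list gives chromosome, start, end, name and score. The score is a whole number per peak set by the authors, without a unit, and it was used only to rank peaks within a list (rank 1 is the highest, the percentile is the share of peaks with a lower score, a tied peak counting in part). The lists hold no read counts, so beyond that stated depth the reads used per list and the precision of single peaks are unknown.

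Genes came from a RefSeq table of GRCm38.p6, the same assembly as mm10, which gives no exons. Strands and starts came from the RefSeq promoter table. A peak counted for a gene by an overlap of at least 1 bp with the gene span widened by 10 or 50 kb. Distances run from the peak edge to the gene span unless the midpoint is named. Counts used Python 3.11.15 with pandas 2.3.3, numpy 2.4.6 and scipy 1.17.1, equalled those of bedtools 2.31.1 in all 80 combinations of gene, window and list and in the overlaps of all 12 ordered pairs of whole lists, and were tested on simulated data. Figures used matplotlib 3.10.9. The 10 genes, the related lists and the alternatives were chosen with earlier results of these data known. Named were all 10 genes, all peaks within 10 kb of them (the highest per list, and others as needed, between 10 and 50 kb), and per related list the 3 genes with the highest-ranked peaks. Alternatives changed the window, the midpoint rule, the score threshold, the list length, the nearest-gene rule, the overlap and the background genes.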

Additional observations from a re-analysis of the deposited data

How the results depend on the processing

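Peak calling, its threshold and the reads used are unknown, each group is 1 library, and 10 genes resolve only large departures from all genes. No paired analysis was possible because each group has 1 library and no result comes from a test. The counts of genes within 10 kb, in the order Oct1 in ESCs, Oct4, day 3 and day 6, were 1, 3, 3 and 5. Percentages in brackets are the share of all protein-coding genes under the same setting. With a window of 20 kb the first 3 counts became 3 (44.2%), 5 (49.0%) and 5 (29.9%), and with 100 kb 6 (69.5%), 8 (72.5%) and 6 (53.3%). With the 50% of peaks with the higher scores, the day 3 count was 1 (15.0%) and the day 6 count 3 (25%). With every list shortened to 4867 peaks, the counts were 0 for Oct1 in ESCs (16.3%), 1 for Oct4 (14.7%) and 3 at day 6 (30.2%). With the nearest-gene rule the day 6 count was 2 (31.6%). Within 50 kb, the counts of 5, 7, 5 and 6 became 3 (32.3%), 3 (36.4%), 3 (18.9%) and 2 (32.1%) under the nearest-gene rule. The top 50% of scores gave 2 at day 3 (27.0%) and 3 at day 6 (39.9%), and lists of equal length gave 2 for Oct1 in ESCs (33.6%), 2 for Oct4 (31.4%) and 3 at day 6 (46%). Among shared peaks, the top 50% of scores left 3 of 8 ESC Oct1 peaks with an Oct4 peak (48.0% of the whole list under this setting), 0 of 2 day 3 peaks with an ESC Oct1 peak (29.5%) and 1 of 2 with a day 6 peak (67.8%). Fewer peaks or a wider window change such counts by construction. Of 56 alternative values for these counts, 32 stayed within 1.5 times, among them the midpoint rule for every count and the overlap of 50% of each peak or a gap of up to 500 bp.

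Restricting the background to 18190 protein-coding genes with spans between those of Msgn1 (567 bp) and Meox2 (70995 bp) gave 32.7% for Oct1 in ESCs, 37.9% for Oct4, 23.4% at day 3 and 40.7% at day 6 within 10 kb.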

Other observations

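Gene density went along with having a peak, which was looked at after the data were seen. Among 6300 protein-coding genes with 0 or 1 other gene within 50 kb, 28.9% had a day 6 peak within 10 kb, and 3 of the 7 listed genes of this class did (Meox1, Ripply2 and Cited2). The share was 42.1% of 10647 genes with 2 to 4 others and 56.3% of 4940 genes with 5 or more, the class of Tbx6. In the ESC Oct1 list the same classes had 26.1%, 36.9% and 43.3%, and in the Oct4 list 29.0%, 41.8% and 51.1%. At day 3 they had 16.8%, 24.3% and 35.2%. Of the 7 listed genes of the first class, 1 had a peak in the ESC Oct1 list, 3 in the Oct4 list and 1 at day 3. The part of gene density in the counts of the 10 genes was not tested.

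The exact octamer in the Ypel3 window was set against all promoter windows, also after the data were seen. The motif ATGCAAAT was present in 6.19% of 1566 windows with an ESC Oct1 peak and in 1.51% of those without. At day 3 these shares were 3.58% of 3213 windows and 1.54%, and for Oct4 in ESCs 2.39% of 1214 windows and 1.71%. At day 6 they were 1.44% of 7032 windows with a peak and 1.82% of those without. The Ypel3 window, with a peak at day 3 and day 6 and none in ESCs, is 1 of 101 windows with both an octamer and a day 6 peak.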
